A study of Mus musculus with 12 samples.

Results

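Kv2 and Kv3 voltage-gated potassium channel genes and silent Kv subunit genes were examined by exon array in the apex, middle turn and base of the adult mouse cochlea. The genes were Kcnb2 of the Kv2 family, the silent subunits Kcns1, Kcns2 and Kcns3, and Kcnc1, Kcnc2 and Kcnc4 of the Kv3 family, taken by gene name, as a list drawn up with earlier results of these data known. All 7 were found on the array by gene name, through 21 of the 165865 probes and as 7 of the 19505 genes analysed. The samples came from male C57BL/6 mice aged 6 weeks, with no transgene or treatment named in the labels, and each cochlear piece held the organ of Corti and spiral ganglion neurons together with the lateral wall, that is the stria vascularis with the ligament and prominence next to it. There were 4 arrays for each of the 3 turns, 12 in all. The authors describe 4 mice whose cochleae were separated into the 3 turns, and the arrays of a turn as independent mouse samples. By that account each mouse gave a piece to every turn. The labels do not say which arrays share a mouse, and the main fit did not pair them.

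Kv2 channels are delayed rectifiers that open with depolarization, inactivate slowly and help to repolarize neurons. Kv3 channels open at strongly depolarized potentials and close very quickly, which lets neurons fire at high rates, and they are known from auditory neurons. Kcns genes encode subunits that form no working channel alone but join Kv2 subunits and change how those channels gate.

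The probes are 60 bases long, and a gene's probes report different parts of its transcripts. The probes on which the results below turn are shown here with their mm9 positions, because 1 of Kcnc1 and 1 of Kcnc4 behaved unlike the rest of their gene. All of those shown lie in coding sequence except A_56_P046634.
Kcnb2 probe A_56_P076225, chr1:15302819-15302878, plus strand: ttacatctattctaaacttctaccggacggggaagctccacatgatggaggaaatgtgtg
Kcns1 probe A_56_P026073, chr2:163993684-163993743, minus strand: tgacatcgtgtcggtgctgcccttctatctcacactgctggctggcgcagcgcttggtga
Kcnc1 probe A_56_P046631, chr7:53653493-53653552, plus strand: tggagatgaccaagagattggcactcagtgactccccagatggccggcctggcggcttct
Kcnc1 probe A_52_P592305, chr7:53682767-53682826, plus strand: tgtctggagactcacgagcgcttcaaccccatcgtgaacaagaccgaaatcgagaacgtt
Kcnc1 probe A_56_P046634, chr7:53690468-53690527, plus strand: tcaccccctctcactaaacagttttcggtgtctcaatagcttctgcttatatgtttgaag
Kcnc1 probe A_56_P046635, chr7:53690657-53690716, plus strand: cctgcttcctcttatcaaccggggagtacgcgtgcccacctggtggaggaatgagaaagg
Kcnc2 probe A_56_P179117, chr10:111709087-111709146, plus strand: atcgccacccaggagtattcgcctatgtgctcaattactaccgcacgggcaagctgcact
Kcnc4 probe A_56_P166858, chr3:107248364-107248423, minus strand: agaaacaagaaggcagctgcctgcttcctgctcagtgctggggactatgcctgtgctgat
Kcnc4 probe A_56_P166857, chr3:107251056-107251115, minus strand: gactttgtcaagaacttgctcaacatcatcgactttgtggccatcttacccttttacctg
Over all 21 probes, the longest run shared with a probe of any other gene was between 13 and 18 bases.

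Signals are fluorescence intensities, scaled so that the 75th percentile of every array was equal, and a gene's signal is the mean of its probes on the log2 scale. Between 77.4% and 81.4% of probes were well above background on each array, none was saturated, and the correlation between arrays of a turn was 0.991 to 0.9948. The 4 arrays of a turn shared 1 slide and no slide held a second turn, and turn and slide therefore cannot be told apart in any comparison below. Signals of different genes are not compared, since probes differ in brightness. In these mixed tissues, fewer cells of a type and less RNA per cell cannot be told apart.

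Basal replicate 3 stood apart from the other basal arrays and was therefore examined first. Its signal over the geometric mean of the other 3 basal arrays was 2.41-fold for Kcnc1, 2.1-fold for Kcns1, 2.05-fold for Kcns3, 1.68-fold for Kcnc2, 1.49-fold for Kcnc4, 1.22-fold for Kcnb2 and 0.98-fold for Kcns2. The median over all genes was 0.976-fold. In the same array the 12 neuron markers were at a median of 2.77-fold and the 12 hair cell markers at 1.07-fold. The 4 red blood cell markers were at 2.07-fold, the 7 Schwann and satellite glia markers at 1.56-fold and the 6 bone cell markers at 1.34-fold. Markers of strial cells, spiral ligament fibrocytes, macrophages and skeletal muscle had medians from 0.913-fold to 0.963-fold. Values without this array are given beside the results it touches. Since it was picked for its high values, leaving it out raises apex over base by construction in the genes high on it. Leaving out basal replicate 2 instead gave the lowest apex over base of any single array left out. On the log2 scale this was 2.01 for Kcns3, 1.24 for Kcnc1, 0.75 for Kcnc4, 0.61 for Kcns1 and 0.20 for Kcnc2.

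Between the apex and the base, 5 of the 7 genes differed, each with the higher signal in the apex. Over the whole array 39.2% of genes differed in this comparison and 17.6% had the higher signal in the apex. The 5 were Kcnb2, Kcns1, Kcns3, Kcnc1 and Kcnc4, and Kcns2 and Kcnc2 did not pass the test. The median difference over the 7 genes was 0.84 on the log2 scale, beside -0.04 over all genes. With a 2-fold difference asked for as well, Kcnb2, Kcns3 and Kcnc1 remained, 3 of 7, against 3.32% of all genes higher in the apex by this rule. The same 5 genes also exceeded the base in the middle turn, in a comparison in which 20.9% of all genes differed and 11.6% had the higher signal in the middle turn. Between the apex and the middle turn Kcnb2 alone of the 7 differed, with the higher signal in the apex, as did 4.42% of all genes, while 7.61% had the higher signal in the middle turn. The 3 comparisons share their arrays and are not independent. Differences were tested as limma contrasts fitted to the 12 arrays together, with p-values adjusted by the Benjamini-Hochberg method across the 19505 genes, and a gene was called at an adjusted p under 0.05.

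**Figure D1:**
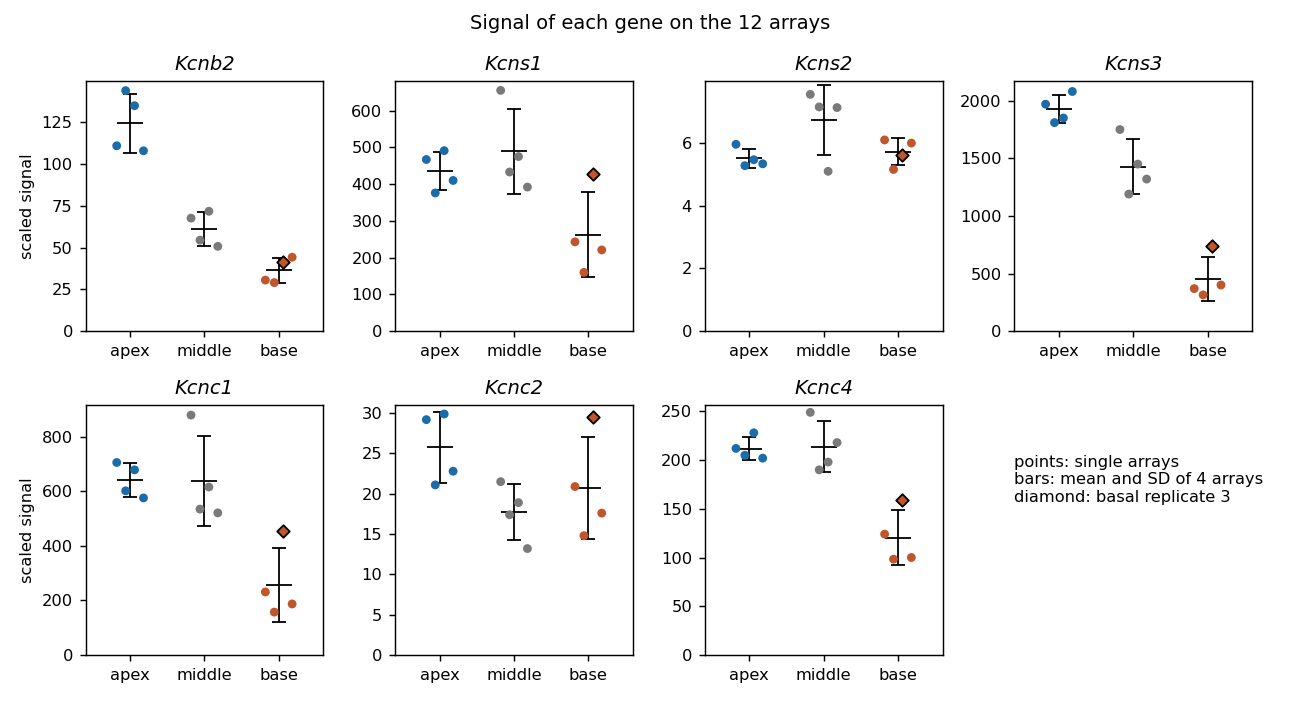
Scaled signal (vertical axis, linear, from 0) of each gene on the 4 arrays of each turn (horizontal axis), with the mean and SD as bars and basal replicate 3 as a diamond. Kcnb2 falls at each step from 124 in the apex to 36.4 in the base, whereas Kcnc1 and Kcnc4 have close means in apex and middle turn and lower signal in the base.

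Kcnb2, which encodes the pore-forming Kv2.2 subunit, was the gene with a step between every pair of turns. Its signal on the 4 apical arrays was 111, 144, 135 and 108. On the middle arrays it was 67.7, 54.5, 71.8 and 50.8, and on the basal arrays 30.6, 29.1, 41.6 and 44.3. No array of one turn overlapped those of another, and the means were 124 ± 17.7, 61.2 ± 10.1 and 36.4 ± 7.66 (SD, n = 4 each). The apex exceeded the base by 1.78 ± 0.17 on the log2 scale (SE), 3.45-fold, with an adjusted p of 1.7e-05. The apex exceeded the middle turn 2.04-fold (adjusted p = 0.0045), and the middle turn exceeded the base 1.69-fold (adjusted p = 0.0096). The normexp setting joined background correction with an added offset of 50 and quantile normalization. Under it the 3 differences kept their calls and were smaller, at 0.84, 0.55 and 0.30 on the log2 scale in place of 1.78, 1.03 and 0.76. An added offset makes log2 differences of dim signals smaller by construction. With quantile normalization alone they were 1.56, 0.96 and 0.60. Of all genes, 16.9% had apical arrays wholly above the basal arrays, 7.30% had apical arrays above the middle arrays and 12.5% had middle arrays above the basal arrays.

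Both Kcnb2 probes moved the same way. The probe printed above, which lies in the part of the transcript that encodes the amino-terminal end, had means of 88.9 ± 22.9, 43.6 ± 10.6 and 23.2 ± 7.79 from apex to base. It was well above background on 4 apical, 3 middle and 1 basal array, so that its basal level is close to the limit of measurement. The other probe, at transcript position 4272, was above background on all 12 arrays, with 176 ± 12.2, 86.8 ± 12.3 and 58.0 ± 7.65. Apex over base was 3.9-fold at the first probe (adjusted p = 0.00041 over all probes) and 3.05-fold at the second (adjusted p = 6e-06). Apex over middle turn was 2.04-fold at both, which passed at the second (adjusted p = 0.0014) and not at the first (adjusted p = 0.052).

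Kcns3, which encodes the silent subunit Kv9.3, had the largest estimated difference between apex and base of the 7 genes. Its 1 probe gave 1970, 1810, 1850 and 2080 in the apex. In the middle turn it gave 1750, 1190, 1450 and 1320, and in the base 370, 315, 739 and 401. The basal arrays all lay below every other array, and the highest of them was replicate 3. Means were 1930 ± 121, 1430 ± 243 and 456 ± 192 (SD, n = 4). Apex exceeded base by 2.16 ± 0.22 on the log2 scale, 4.47-fold (adjusted p = 3.5e-05), and middle turn exceeded base 3.28-fold (adjusted p = 0.00058). The apical arrays also lay above the middle arrays without overlap, by 1.36-fold, but this difference did not pass the test (adjusted p = 0.19). Without basal replicate 3 the same difference had a smaller error (SE 0.12 in place of 0.22) and an adjusted p of 0.04, and apex over base was 2.42 and middle turn over base 1.97 on the log2 scale. A single probe leaves no second measurement of this gene.

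Kcns1, which encodes the silent subunit Kv9.1, had its lowest mean in the base and overlapping arrays. The apical arrays gave 467, 376, 491 and 410, the middle arrays 655, 433, 475 and 392 and the basal arrays 243, 160, 428 and 221. Replicate 3 of the base lay inside the range of the apex and of the middle turn, and the other 3 basal arrays lay below both. Means were 436 ± 52.4, 489 ± 116 and 263 ± 116. Apex exceeded base 1.76-fold (log2 0.82 ± 0.26, adjusted p = 0.026) and middle turn exceeded base 1.95-fold (adjusted p = 0.023). Apex and middle turn differed by -0.14 ± 0.26 on the log2 scale (adjusted p = 0.74). The apical call was lost without apical replicate 1 (adjusted p = 0.062), apical replicate 3 (0.067), or basal replicate 1 (0.054), 2 (0.072) or 4 (0.067), whereas without basal replicate 3 the difference was 1.08 (adjusted p = 0.0013) and that of middle turn over base 1.23 (adjusted p = 0.0013). The call of the middle turn over the base was lost without middle replicate 1 (adjusted p = 0.07) or basal replicate 2 (0.06) or 4 (0.061).

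The 2 Kcns1 probes differed in size. The probe at transcript position 1877 gave 573 ± 74.7 in the apex and 297 ± 198 in the base, 2.22-fold (adjusted p = 0.029). The printed probe, at position 1119 in the coding region, gave 332 ± 41.3 and 240 ± 54.0, 1.4-fold, which did not pass (adjusted p = 0.052). With 2 probes the gene did not enter the test of single probes against the rest of their gene, so the difference between the probes was not tested.

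Kcns2, which encodes the silent subunit Kv9.2, was not well above background on any of the 12 arrays. Its 1 probe read 5.95, 5.27, 5.46 and 5.33 on the apical arrays, 7.54, 7.14, 5.09 and 7.12 on the middle arrays and 6.09, 5.15, 5.61 and 5.99 on the basal arrays. The lowest signal of any probe well above background on an array was 24.7 to 35.8, so these readings set only an upper limit and no fold is given. No comparison was called for Kcns2 (adjusted p from 0.13 to 0.77).

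Kcnc1, which encodes Kv3.1, was lower in the base than in either other turn, with no difference called between those turns. Its gene signal on the apical arrays was 706, 602, 679 and 576. On the middle arrays it was 880, 535, 616 and 521, and on the basal arrays 231, 157, 456 and 187. The basal arrays did not reach the others, although replicate 3 came near. Means were 641 ± 61.6, 638 ± 166 and 258 ± 136. Apex exceeded base by 1.44 ± 0.29 on the log2 scale, 2.71-fold (adjusted p = 0.0022), and middle turn exceeded base 2.64-fold (adjusted p = 0.0071). Apex and middle turn differed by 0.04 ± 0.29 (adjusted p = 0.95). Without basal replicate 3 the difference between apex and base was 1.76 on the log2 scale (adjusted p = 7.8e-05), and that between middle turn and base was 1.72 (adjusted p = 0.00024).

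Kcnc4, which encodes Kv3.4, followed the same order with a smaller difference. The apical arrays gave 212, 205, 228 and 202, the middle arrays 249, 190, 198 and 218, and the basal arrays 124, 98.3, 159 and 100. All basal arrays were below all others. Means were 212 ± 11.7, 214 ± 26.1 and 121 ± 28.3. Apex exceeded base by 0.84 ± 0.14 on the log2 scale, 1.79-fold (adjusted p = 0.00084), and middle turn exceeded base 1.8-fold (adjusted p = 0.0027). Between apex and middle turn the difference was -0.01 ± 0.14 (adjusted p = 0.98). Without basal replicate 3 the apex exceeded the base by 0.98 on the log2 scale (adjusted p = 9.7e-05) and the middle turn exceeded it by 0.99 (adjusted p = 0.00025). Under the normexp setting, with its offset of 50 and quantile normalization, both differences passed and were smaller, at 0.47 and 0.49. With quantile normalization alone they were 0.70 and 0.75.

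Kcnc2, which encodes Kv3.2, was near the limit of measurement. Its gene signal was 29.2, 21.1, 29.9 and 22.8 on the apical arrays, 21.5, 17.4, 18.9 and 13.2 on the middle arrays and 20.9, 14.8, 29.5 and 17.6 on the basal arrays. The turns overlapped, and no comparison was called (adjusted p = 0.24 for apex against base, 0.11 for apex against middle turn, 0.55 for middle turn against base). None of its 4 probes was well above background on all 12 arrays, and 2 were not on any. The brightest was the printed coding-region probe at transcript position 389, above background on 11 arrays, with 90.5, 70.6, 94.1 and 77.3 on the apical arrays, 64.9, 47.0, 60.9 and 46.1 on the middle arrays and 43.9, 29.3, 46.5 and 49.8 on the basal arrays. At that probe the apical arrays lay wholly above the basal ones, 1.99-fold (adjusted p = 0.0018 over all probes). Without basal replicate 3, an array picked for its high values, the gene as a whole passed (log2 0.53, adjusted p = 0.045). It did not pass with any other single array left out, and was at 0.20 without basal replicate 2 (adjusted p = 0.52).

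**Figure D2:**
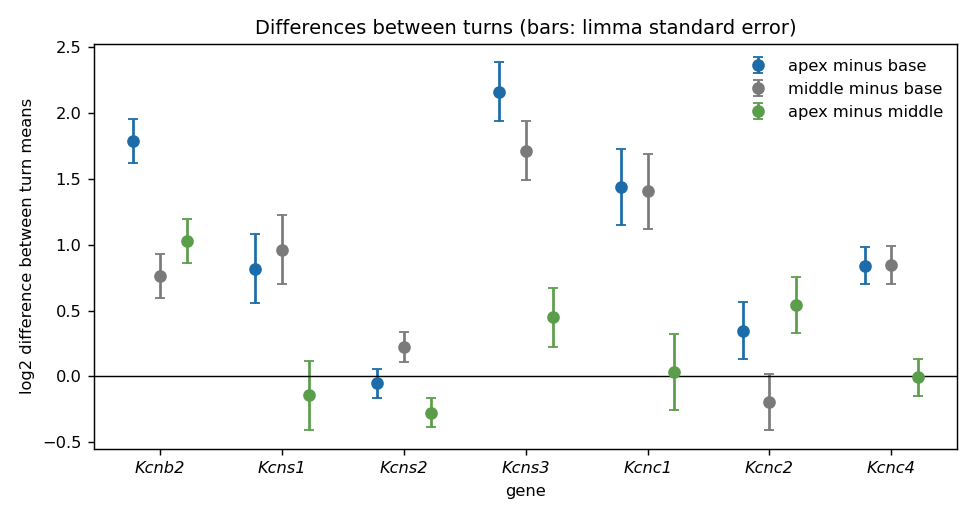
Difference between turn means on the log2 scale (vertical axis) for each gene (horizontal axis), with the limma standard error as bars. For Kcns1, Kcnc1 and Kcnc4 the points for apex minus base and middle minus base lie side by side and apex minus middle lies near 0, whereas for Kcnb2 apex minus middle is 1.03.

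Probes of single exons were then compared between the apex and the base. Of the 21 probes, 15 passed, all higher in the apex, beside 34.4% of all probes passing and 18.0% of all probes higher in the apex. Among the 15, Kcnc1 probe A_56_P046636 was well above background on only 1 array, a middle one, so that its call rests on dim signals. The 6 that did not pass were the coding-region probe of Kcns1, the probe of Kcns2, 3 probes of Kcnc2 and 1 probe of Kcnc4. Probes of 1 gene share their samples and are not separate evidence.

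**Figure D3:**
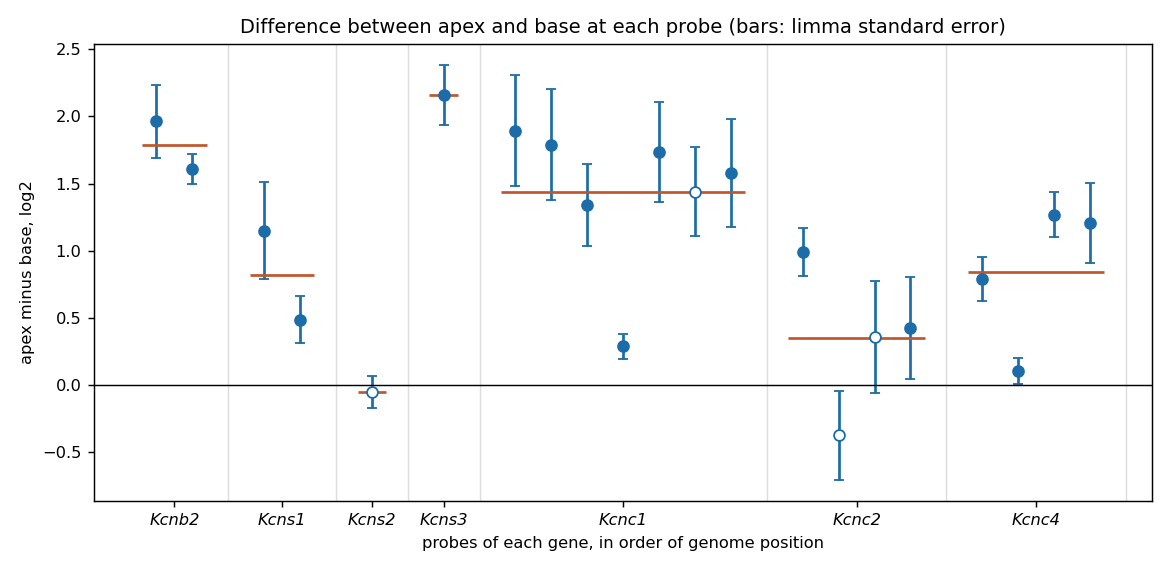
Apex minus base on the log2 scale (vertical axis) for each of the 21 probes, grouped by gene and in order of genome position (horizontal axis), with the limma standard error as bars and the gene's own difference as a horizontal line. Open circles are probes that were not well above background on all 4 arrays of any turn, and 1 probe of Kcnc1 (0.29) and 1 of Kcnc4 (0.10) lie far below their neighbours.

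The Kcnc1 probes span 40279 bases of mm9 and separate the known transcript forms of the gene. The files place 1 probe on the short form (NM_008421, position 7686) and 2 on the long form (NM_001112739, positions 2814 and 3944). These forms differ in the tail of the protein, the long one being known as Kv3.1b. The probes A_56_P046631 and A_52_P592305 lie in coding sequence upstream, before the forms part. They gave 1940 ± 167 and 2420 ± 204 in the apex against 648 ± 544 and 872 ± 734 in the base, 3.71-fold and 3.46-fold (adjusted p = 0.0051 and 0.0067). The short-form probe gave 1300 ± 86.8 and 557 ± 282, 2.53-fold (adjusted p = 0.0061). The long-form probes gave 3.33-fold at A_56_P046635 (adjusted p = 0.0047) and 2.99-fold at the second (adjusted p = 0.011). Probes of both forms were thus higher in the apex. The log2 difference between long-form and short-form probes was -0.17 ± 0.11 on the apical arrays, -0.16 ± 0.07 on the middle arrays and -0.49 ± 0.28 on the basal arrays (SD, n = 4), of which only the change between turns can be read. The basal arrays gave -0.53, -0.53, -0.10 and -0.78, so that replicate 3 lay with the other turns, and this difference was not tested.

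Probe A_56_P046634 of Kcnc1 did not follow the rest of its gene. It gave 321, 262, 292 and 255 on the apical arrays, 289, 264, 238 and 285 on the middle arrays and 245, 243, 219 and 216 on the basal arrays. All 4 values in the base lay below those in the apex, by 1.22-fold (adjusted p = 0.033), whereas the 5 other probes above background on all arrays differed 2.53-fold to 3.71-fold. Against the mean of those 5 probes it was lower in the apex than in the base by 1.38 ± 0.37 on the log2 scale (adjusted p = 0.024). The files list this probe under a cDNA clone (AK139272) and under neither named form, and it ends 129 bases before the long-form probe A_56_P046635 on the genome. A second probe of the same clone, 1217 bases further on both the clone and the genome, was above background on 1 array and gave 20.4 ± 6.88 in the apex and 7.22 ± 1.4 in the base. The call was lost without apical replicate 1 or 2 or basal replicate 1, 2 or 4.

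In Kcnc4 it was the probe A_56_P166858, at transcript position 1763, that stood apart from the others. Its signal was 254, 245, 267 and 223 on the apical arrays, 250, 205, 248 and 272 on the middle arrays and 214, 229, 255 and 225 on the basal arrays, with overlap of all turns. Apex over base was 1.07-fold (log2 0.10 ± 0.10, SE, adjusted p = 0.48). The other Kcnc4 probes, from the 5′ end of the transcript, gave 2.31-fold at position 413 (adjusted p = 0.01), 2.41-fold at position 941 (adjusted p = 0.00029) and 1.73-fold at position 2610 (adjusted p = 0.0036). The probe at 941 was above background on only 3 basal arrays and did not enter the test of single probes against their gene. Against the mean of the probes at 413 and 2610, the probe at 1763 was lower in the apex than in the base by 0.90 ± 0.20 on the log2 scale (adjusted p = 0.010). This call held with every single array left out. The probe at 1763 lies in coding sequence and is listed under the same transcript (NM_145922) as its neighbours on either side.

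In this test of single probes against the rest of their gene, 6 of the 9 probes tested were called, beside 17.6% of all 115762 probes tested. Besides the probe that stood apart in each gene, they were A_56_P046631 (0.55), A_52_P592305 (0.42) and A_56_P046635 (0.36) of Kcnc1 and A_56_P166856 of Kcnc4 (0.76), each higher in the apex relative to its gene on the log2 scale. For each of these the mean of the other probes contains the probe that stood apart, so that part of the difference is given by the construction of the measure. With single arrays left out, 2 to 6 of the probes were called, and the count was 2 without apical replicate 1, apical replicate 2 or basal replicate 4 and 3 without basal replicate 1 or 2. A_56_P046631 and A_56_P166858 were called in all of these.

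Other genes of these channel families and genes of their partners were read beside the 7. Of 10 genes listed, 9 were measured. In the comparison of apex and base 1 was higher in the apex, 1 was higher in the base and 7 did not pass, and their median was -0.01 on the log2 scale. Kcng1, a silent subunit gene, was at 20.6 ± 4.92 in the apex and 14.1 ± 3.09 in the base (log2 0.54, adjusted p = 0.032), with no probe above background on all arrays. Kcng4, another silent subunit gene, was higher in the base (23.2 ± 10.8 against 54.8 ± 22.5, log2 -1.31, adjusted p = 0.015), likewise with no probe above background on all arrays. Amigo1, which encodes a membrane protein that binds Kv2 channels, was at 1280 ± 95.3, 1250 ± 24.7 and 1170 ± 101 from apex to base and was not called (adjusted p = 0.17). Between the middle turn and the base limma called 0 of 9, with 1 at an unadjusted p under 0.05, and between the apex and the middle turn it called 0 of 9, with 3 at an unadjusted p under 0.05 and the smallest adjusted p at Kcnv1 (0.0502). Unmoderated t tests of the same contrasts, from a plain one-way fit of turn, called 0 of 9 in both of these comparisons and 1 of 9 between apex and base.

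Most markers of neurons and of hair cells were lower in the base than in the apex, as were the 5 called channel genes. Of 12 neuron markers, among them Snap25 and Tubb3, 11 had the higher signal in the apex and 1 in the base, with a median of 1.46 on the log2 scale. All 12 exceeded the base in the middle turn, and between apex and middle turn 1 was called, higher in the middle turn. The summed signal of the list was 48900 to 63400 in the apex, 46800 to 83700 in the middle turn and 9910 to 43200 in the base, where replicate 3 was the highest. Of 12 hair cell markers, among them Otof and Slc26a5, 11 exceeded the base in the apex and 1 did not pass, with a median of 1.64. The summed hair cell signal was 16500 to 21000 in the apex, 12800 to 14800 in the middle turn and 5210 to 7720 in the base, and 4 of the 12 were higher in the apex than in the middle turn. Schwann and satellite glia markers exceeded the base in the apex in 6 of 7 cases, with 13400 to 15200 summed against 6810 to 12900. Markers of strial cells were higher in the base in 7 of 8 cases, and those of spiral ligament fibrocytes in 4 of 6. Macrophage markers were higher in the base in 4 of 5 cases, bone cell markers in 1 of 6 and skeletal muscle markers in 1 of 4, and the 4 red blood cell markers did not pass. Each marker of the neuron and hair cell lists had at least 1 probe well above background on all 12 arrays. The part of these markers in the differences of the potassium channel genes was not tested.

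**Figure D4:**
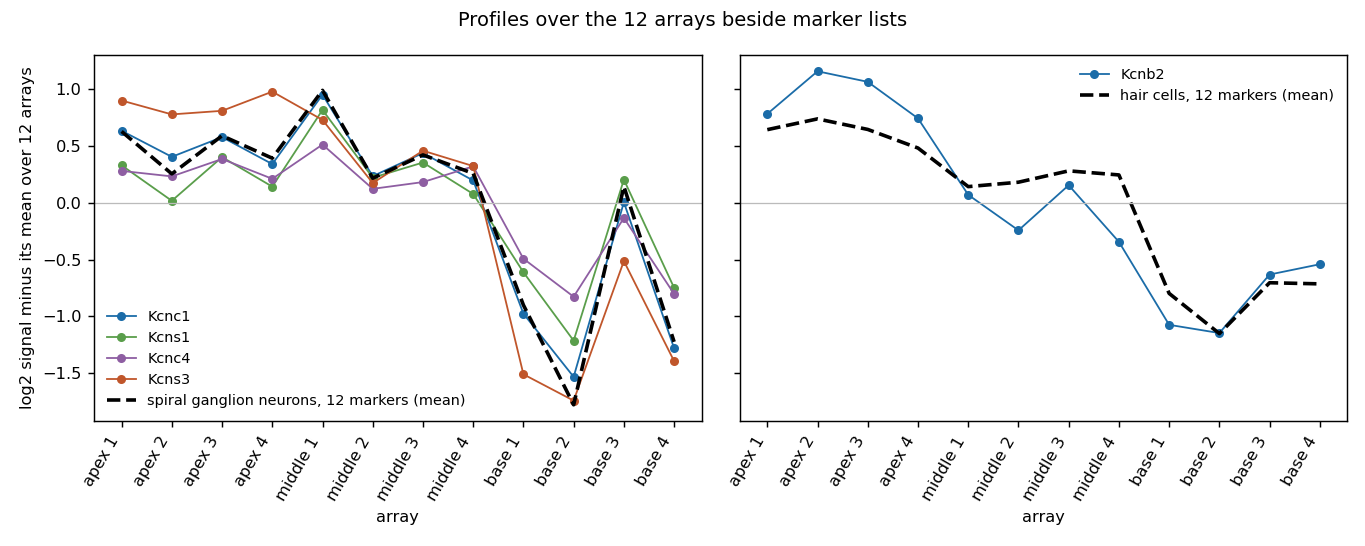
Log2 signal on each array minus the mean over the 12 arrays (vertical axis), by array (horizontal axis), for Kcnc1, Kcns1, Kcnc4 and Kcns3 beside the mean of 12 neuron markers (left) and for Kcnb2 beside the mean of 12 hair cell markers (right). The Kcnc1 line lies close to the neuron line, with basal replicate 3 raised in both, whereas the Kcns3 line is below the neuron line on that array. The Kcnb2 line falls at each turn. Each gene was drawn beside a single list by choice, and the cell type of origin was not tested.

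The genes with the profile most like each channel gene were taken from 16007 candidates (16008 for Kcnc2), as those with the smallest root mean square difference of centred log2 signal over the 12 arrays. For Kcnc1 they were Ache (0.07), Iqsec3 (0.07) and Scg5 (0.07), beside a spread of Kcnc1 itself of 0.77. For Kcns1 they were Panx2 (0.06), Tmem179 (0.08) and Atcay (0.09), and for Kcnc4 Colq (0.07), Nrsn2 (0.09) and Arhgap19 (0.09). For Kcns3 the nearest were Hapln1 (0.21), Bves (0.21) and Lancl3 (0.22), and for Kcnb2 Cdh6 (0.19), Ptprq (0.22) and Fzd10 (0.22). For Kcnc2 the nearest was Trhde (0.20), beside a spread of 0.36 for Kcnc2. These are descriptions over arrays that share turn and slide.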

How the data were processed

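The data are 12 single-colour Agilent exon arrays, hybridized with RNA labelled from 25 ng of total RNA per sample. The deposited intensity files hold the processed signal of each spot, which the authors made with Agilent Feature Extraction, with a background subtracted and no scaling between arrays. Probe positions refer to mm9. The members and all lists were chosen with earlier results of these data known. Of 180880 spots, 7914 controls and 622 spots flagged on any array were left out. Each array was scaled to a 75th percentile of 640.8, log2 was taken, spots of a probe and then probes with 1 gene name were averaged, with no filter and no pseudocount. The turns were compared with limma 3.58.1 in R 4.3.3 (adjusted p under 0.05 over all genes or probes). Single probes were also set against the mean of their gene's other probes, over probes well above background on all 12 arrays in genes with at least 3. Named were all members, 10 listed relatives and partners, marker lists, and the 3 nearest profiles. In simulated data for apex against base, 88 of 100 genes changed by 1 on the log2 scale and 66 of 100 changed by 0.5 were recovered, with 4 false calls among 19505 genes. Of single probes, 63 of 100 changed by 1 and 22 of 100 changed by 0.5 were recovered, with 0 false calls. In the test within genes, 175 of 200 probes changed by 1 were recovered, with 16 false calls outside the changed genes. The simulation changed few genes or probes, gave each independent noise and held no slide difference. In the real data many genes differ and vary together, so these rates need not hold for them. The number of arrays limits the precision. Alternatives to scaling, background correction, probe averaging, filters, pseudocount, test, fit, block and single arrays are given at the end. Some genes and sequences of these families are not reported here.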

Additional observations from a re-analysis of the deposited data

Results flagged for a closer look

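Of 105 sets of 4 arrays examined, 5 held an array far from the other 3, and chance alone marks about 1 in 20. For Kcns2, middle replicate 3 read 5.09 against 7.12 to 7.54 on the other middle arrays, all of them below background. At the long-form probe A_56_P046635 of Kcnc1, middle replicate 1 read 832 against 437 to 475. At the Kcnc2 probe A_56_P179118, middle replicate 3 read 5.53 against 7.87 to 8.32. At the Kcnc2 probe A_56_P179119, middle replicate 3 read 12.3 against 9.27 to 9.7, and basal replicate 3 read 24.8 against 6.63 to 7.75. Both of these Kcnc2 probes were never well above background.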

How the results depend on the processing

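Slide could not be fitted beside turn, since each turn had a slide of its own, and dim signals limit Kcns2 and Kcnc2. Kcnb2, Kcns3, Kcnc1 and Kcnc4 passed between apex and base at an adjusted p under 0.05 in all 28 alternatives, and no called difference changed sign. Scaling to 8 spike-in probes moved the median of all genes to -0.52 (apex and base), -0.28 (apex and middle turn) and -0.23 (middle turn and base) on the log2 scale and gave 15109, 7930 and 7328 calls in place of 7645, 2346 and 4070. Under it the differences of Kcnc1 and Kcnc4 between apex and base were 0.95 and 0.35, Kcns1 lost its apical call (log2 0.33, adjusted p = 0.23), Kcns2, below background, was called lower in the apex than in the base (-0.54, adjusted p = 0.00022) and than in the middle turn, which gave 2 members there in place of 1, and Kcnb2 lost the call of middle turn over base (adjusted p = 0.054). Median scaling gave 3542 calls between apex and middle turn. Of the calls between apex and base, the share with the apex higher was 44.9%, and 26.5% with median and 5.1% with spike-in scaling. For apex and middle turn it was 36.7%, 18.7% and 2.7%. Between middle turn and base, the share with the middle turn higher was 55.8%, and 45.0% with quantile normalization, 38.2% with median scaling, 10.3% with spike-in scaling and 44.7% with normexp. A 2-fold rule left 872, 76 and 519 genes and 3, 1 and 2 members. With all probes of a gene, 3 member probes differed from the rest of their gene in place of 6. With only the 2 turns compared, Kcns1 lost the call of middle turn over base (adjusted p = 0.061). Averaging linear signals called Kcnc2 between apex and base (adjusted p = 0.027), as did averaging its probes above background (adjusted p = 0.032), 1 of which passed that filter through the apex alone.

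The sample numbers did not meet the rule set for pairs, and the main fit therefore had no block. The correlation of deviations between same-numbered arrays of different turns was 0.10 on average (-0.04 to 0.23, n = 12). Between differently numbered arrays it was -0.03 (-0.26 to 0.25, n = 36). Of the 12 arrays, 8 correlated best with an array of their own number. These values do not show that the arrays are unpaired. With the replicate block, 2 members differed between apex and middle turn in place of 1, Kcnc2 being added (adjusted p = 0.031), with 8167 and 3322 calls over all genes for apex against base and against middle turn.

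Leaving out single arrays, 4 to 6 members were called between apex and base, 1 to 2 between apex and middle turn and 4 to 6 between middle turn and base, with 6494 to 7677, 965 to 3536 and 2656 to 4755 genes. Without middle replicate 3, Kcns2, below background, was called higher in the middle turn against the apex (adjusted p = 0.0049) and the base (0.0082). That array differed from the other middle arrays in its dim signals. On it 81.4% of probes were well above background, against 77.4% to 77.7% on the others. Its lowest signal well above background was 25.2, against 34.3 to 35.8 on the others. Between 2 and 6 probes differed from the rest of their gene, and 13 to 16 member probes differed between apex and base. The cause of these changes was not tested.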
